A study of Mus musculus with 6 samples.

Results

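The complement genes described here are 9 genes of the mouse uterine luminal epithelium, taken by their symbol from 21740 genes measured on the arrays. They are C3 and C4b, the convertase proteases C2, Cfb and Cfd, the soluble regulators Cfi and Clu, and the membrane inhibitors Cd55 and Cd59a. Each of the 9 symbols had 1 row in the deposited table, and no filter on low values was set. The luminal epithelium lines the uterine cavity and is the first maternal tissue that an implanting embryo touches. It was compared between gestation day 4.5 (D4.5, 3 arrays), when implantation sites were present, and gestation day 3.5 (D3.5, 3 arrays), when blastocysts were present in the uterus. Females of both days were wild type, of a mixed C57BL6/129svj background, 2 to 4 months old and naturally mated to wild-type males, with the day of the vaginal plug counted as day 0.5. Epithelial sheets were loosened with 0.5% dispase and scraped off, and biotin-labelled cRNA from 1 µg of total RNA was hybridised to one-colour Affymetrix arrays. Separate animals or pools behind the 3 arrays of each day are not named in the labels, and the p-values therefore speak only for the variation among these samples, part of which may be technical.

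Complement is a set of secreted and membrane proteins that marks surfaces for removal. The classical and lectin pathways cut C4 and C2 to form an enzyme that splits C3, and the alternative pathway forms a like enzyme from C3b and factor B, which factor D activates. Factor I and the membrane proteins CD55, CD46 and Crry stop these enzymes on host cells, and CD59 and clusterin act on the terminal pore. Complement is active in the uterus, where secreted C3 is known as an oestrogen-induced product of the rat uterine epithelium, and mouse embryos that lack Crry are lost to maternal complement.

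Of the 9 genes, C3 and Cd55 rose on D4.5, C2, Cfi and C4b fell, and 4 did not pass an adjusted p of 0.05. Past a 2-fold change as well were the rise of C3 (3.52-fold) and the falls of C2 (3.21-fold) and Cfi (2.43-fold). Among all genes the same test passed 44.4% in either direction (18% higher and 26.4% lower), and among the 14691 genes above the chemosensory receptor level described below 51% passed, so 5 of 9 is close to the background. With 2-fold as a second criterion 5.5% of all genes passed (3.04% higher and 2.46% lower), against 3 of the 9. The median change of the 9 genes was -0.21 on the log2 scale, beside -0.07 over all genes. Levels below are log2(intensity + 16) after quantile normalization, a change is the mean of D4.5 minus that of D3.5 with its SE, and adjusted p-values are from limma over all 21740 genes. The days did not overlap for 5 of the 9 genes, against 58.6% of all genes.

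**Figure D1:**
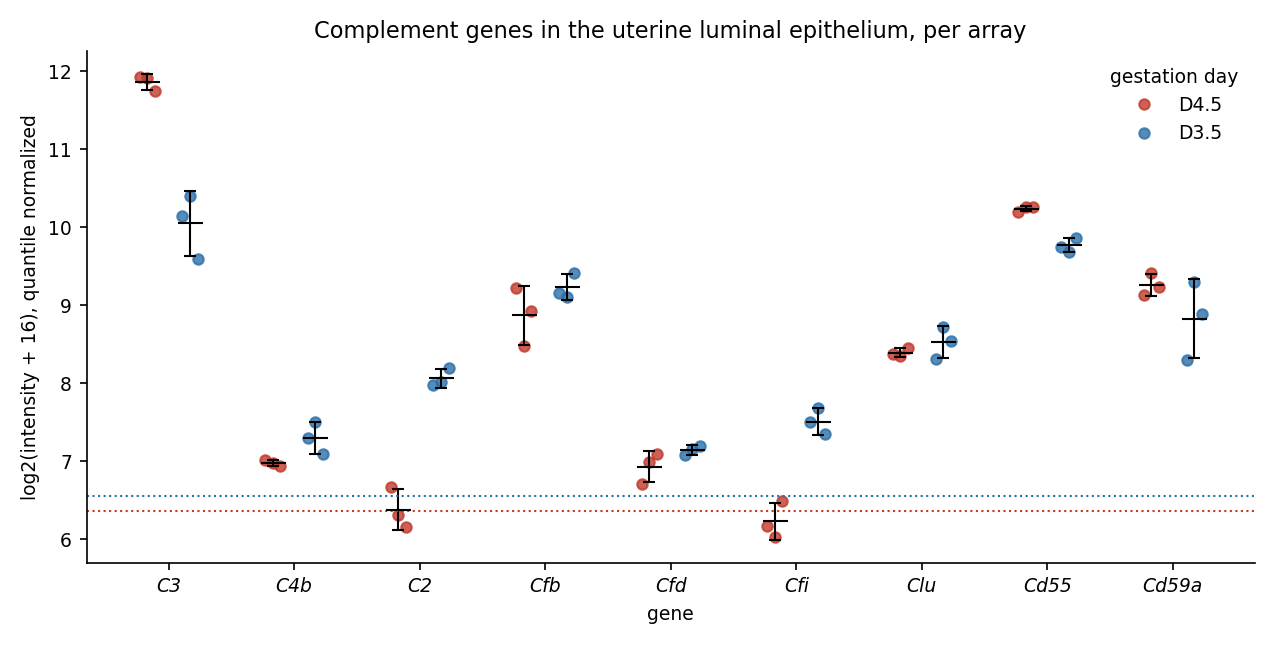
Level of each of the 9 complement genes, as log2(intensity + 16) after quantile normalization, on the 3 D4.5 arrays (red, left of each pair) and the 3 D3.5 arrays (blue, right). Points are arrays, black bars are mean ± SD, and dotted lines mark the level under which 95% of chemosensory receptor genes lay on each day (6.37 on D4.5, 6.56 on D3.5). C3 stands higher on D4.5 and C2 and Cfi lower, with the D4.5 points of C2 and Cfi close to the receptor genes; heights of different genes are not comparable, since each has its own probes.

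The tissue label was checked against cell type markers. All 12 luminal epithelium markers lay above the level of chemosensory receptor genes on both days, a level taken here as the background because this epithelium is not known to use those genes (1346 genes, 95% of them under 6.37 on D4.5 and 6.56 on D3.5). The summed intensity of the 12 markers was 18836 to 21259 on D4.5 and 17089 to 19983 on D3.5. Of the 1346 receptor genes 404 (30%) passed the test between the days, 3 of them past 2-fold as well. A call on the adjusted p alone is therefore common even among genes taken as the background. The gene names rest on the deposited symbols, which the row identifiers could not check; by these names 34.8% of all genes lay at or under 6.37 on D4.5, against 95% of the receptor genes and none of the luminal markers. Krt19, a keratin of this list, fell by 1.60 on the log2 scale (SE 0.19). Markers of other cells were measured too, with summed intensities for 10 stromal markers of 1686 to 5515 on D4.5 and 2893 to 4694 on D3.5. For 14 leukocyte markers the sums were 1686 to 2713 on D4.5 and 2164 to 2693 on D3.5, and for 8 endothelial markers 690 to 1670 on D4.5 and 893 to 1464 on D3.5. The stromal, endothelial and leukocyte sums were highest on D4.5 replicate 1 and lowest on D4.5 replicate 3, and the days overlapped in all 3 lists. No stromal or endothelial marker passed the test, beside 44.4% of all genes, and of the leukocyte markers 2 rose and 1 fell. Some stromal and endothelial markers varied widely on D4.5 (SD 1.22 for Dcn and 1.13 for Emcn). A missing call therefore does not show equal content. Glandular markers (7 genes, 2 higher and 3 lower) summed to 633 to 751 on D4.5 and 638 to 699 on D3.5. Embryo and trophoblast markers (8 genes, 1 higher and 3 lower) summed to 520 to 537 on D4.5 and 590 to 639 on D3.5. Of 6 smooth muscle genes 1 rose and 1 fell, and of 4 red cell genes 2 fell. The part of these cells in the results was not tested. The array median intensity was 78.9 to 80.2 on D4.5 and 108.6 to 118.4 on D3.5, and array processing and day cannot be told apart. In such tissue samples a smaller share of a cell type and less RNA per cell cannot be told apart either.

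**Figure D2:**
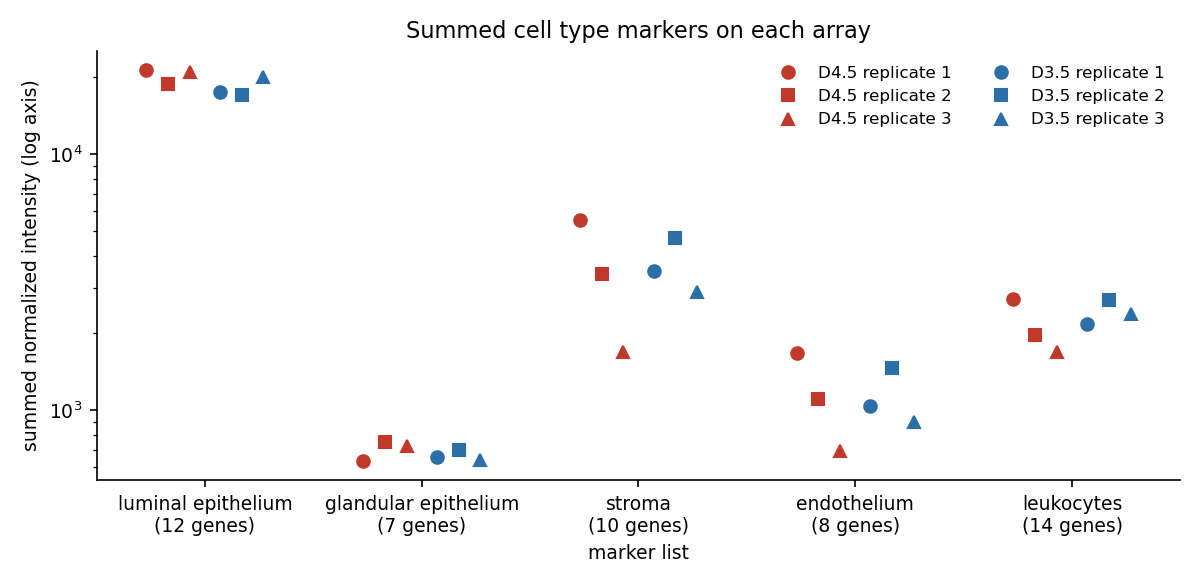
Summed normalized intensity (log axis) of the cell type marker lists on each array, D4.5 in red left of D3.5 in blue, with a symbol for each replicate. The luminal sums lie between 17089 and 21259 on all 6 arrays, whereas the stromal sums of D4.5 span 1686 to 5515 and enclose those of D3.5.

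C3, the component on which all 3 pathways meet, had levels of 11.93, 11.91 and 11.75 on D4.5, against 10.14, 10.41 and 9.60 on D3.5. All D4.5 arrays were above those of D3.5, and the spread was wider on D3.5. The change was 1.81 ± 0.19 (SE; 95% interval 1.37 to 2.26; adjusted p = 0.000385), and 0.764% of all genes had a higher one. In the deposited linear values this was 3837 ± 307 on D4.5 and 1052 ± 324 on D3.5 (SD, n = 3 each). D4.5 replicate 3, the array with the lowest stromal, endothelial and leukocyte sums, had C3 at 11.75, above the highest D3.5 array. Within each day the C3 arrays follow the order of the stromal and endothelial sums, whose part in the result was not tested. C3 passed under every alternative run, with changes from 1.59 to 2.32.

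The stretch before the C3 start site is shown because C3 had the largest rise of the 9 genes and is reported as hormone- and cytokine-responsive. It covers the 250 bases upstream of the start on the minus strand of chr17:57228137-57228386 (RefSeq, GRCm38.p6), written 5′ to 3′, with motif matches in capitals.
C3 promoter: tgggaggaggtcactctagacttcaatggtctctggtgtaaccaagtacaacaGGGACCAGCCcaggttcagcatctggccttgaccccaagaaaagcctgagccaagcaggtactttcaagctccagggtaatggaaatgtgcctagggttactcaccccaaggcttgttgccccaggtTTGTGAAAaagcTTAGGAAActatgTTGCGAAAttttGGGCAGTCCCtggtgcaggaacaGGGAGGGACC
Matches to C/EBP-type and NF-kB-type letters are marked. The C/EBP-type motif TTNNGNAA matched 3 times, beginning 70, 58 and 45 bases before the start (TTGTGAAA, TTAGGAAA and TTGCGAAA), and 36.8% of 32851 promoter windows of the same length hold at least 1 match on either strand. The NF-kB-type motif, GGGA and CC with any 4 bases between, also matched 3 times, beginning 197, 33 and 10 bases before the start, and 17.6% of windows hold it. The match beginning at 33 reads so on the opposite strand. The STAT-type TTCNNNGAA and the oestrogen-receptor-type motif, GGTCA and TGACC with any 3 bases between, have no match in this window, and 7.02% and 0.0639% of all windows hold them. None of these matches overlaps another. A match is a description of the letters and does not show binding.

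C4b encodes C4, the thioester protein of the classical and lectin pathways and a relative of C3. Its levels were 7.02, 6.98 and 6.94 on D4.5, against 7.30, 7.51 and 7.10 on D3.5. Within each day they too follow the order of the stromal and endothelial sums, whose part was not tested. The days were close but did not overlap, and the change of -0.32 ± 0.11 passed narrowly (adjusted p = 0.0426). It lies inside the range that holds 95% of the changes of receptor genes (-0.59 to 0.33), and 30% of those genes passed as well. The call was lost with median centring (-0.23, adjusted p = 0.12), with a constant of 64 (-0.24, adjusted p = 0.0537) and without any 1 of 5 arrays in turn, D3.5 replicate 3 being the exception (-0.22 without D3.5 replicate 2). C4a, its near-identical relative in mouse, did not exceed the receptor genes on either day (6.10 ± 0.12 on D4.5 and 6.34 ± 0.24 on D3.5, SD, n = 3 each) and did not pass (-0.24 ± 0.13). How far the probes separate C4a from C4b is not stated. On each array C3 exceeded C4b by 4.91, 4.93 and 4.81 log2 units on D4.5, against 2.84, 2.90 and 2.50 on D3.5. Each symbol has its own probes, so the gap itself carries no meaning. Its shift between the days was 2.14, with no overlap of the days, in a design too small to pass 0.05 (exact two-sided permutation p = 0.1, the smallest that 3 against 3 arrays allow; 0.15 adjusted over 3 pairs).

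C2, the protease of the classical and lectin C3 convertase, fell. Its levels were 6.68, 6.31 and 6.16 on D4.5, against 7.97, 8.02 and 8.20 on D3.5. The D4.5 arrays follow the order of the stromal, endothelial and leukocyte sums. The D3.5 arrays do not, since replicate 3 was highest in C2 and lowest in the stromal and endothelial sums. The part of these cells in the result was not tested. The D4.5 mean of 6.38 is close to the level of receptor genes, and the D3.5 arrays are well above it. The change was -1.68 ± 0.14 (adjusted p = 0.000133), and 0.727% of all genes had a lower one. In the deposited values C2 averaged 55.8 ± 13.7 on D4.5 and 264.5 ± 31.9 on D3.5 (SD, n = 3 each). The size moved with the added constant, to -1.90 for 1 and -1.26 for 64. C2 passed under every alternative run.

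Cfb, factor B, is the protease of the alternative pathway convertase and a close relative of C2, and lies next to it on chromosome 17 in the RefSeq gene table. Its levels were 9.22, 8.47 and 8.93 on D4.5, against 9.16, 9.11 and 9.42 on D3.5. Replicate 1 of D4.5 was inside the D3.5 range and the other two were below it. The change was -0.36 ± 0.18 (95% interval -0.79 to 0.08; adjusted p = 0.154). It was 0.083 with median centring, and it passed with array weights (-0.60, adjusted p = 0.025) and without D4.5 replicate 1 (-0.53, adjusted p = 0.0494). Within arrays Cfb minus C2 was 2.55, 2.16 and 2.77 on D4.5, against 1.19, 1.09 and 1.22 on D3.5. The shift of 1.33 has the smallest p that the design allows (exact permutation p = 0.1, 0.15 adjusted over 3 pairs), and it was 0.93 with a constant of 64.

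Cfd, the gene of factor D (adipsin), which cuts factor B bound to C3b, had 6.72, 6.99 and 7.09 on D4.5, against 7.08, 7.16 and 7.20 on D3.5. The days overlapped slightly. The change of -0.21 ± 0.11 (95% interval -0.46 to 0.03) did not pass (adjusted p = 0.137), and no fit but that of the values as deposited gave it a call. In those values the median of all genes was -0.40, and Cfd, at -0.58, changed by -0.18 relative to it.

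Cfi encodes factor I, the serine protease that cuts C3b and C4b apart with the help of cofactors. Levels were 6.17, 6.03 and 6.49 on D4.5, against 7.50, 7.68 and 7.35 on D3.5. All D4.5 arrays were lower, and their mean of 6.23 was at the level of receptor genes. The change was -1.28 ± 0.14 (95% interval -1.60 to -0.96; adjusted p = 0.000417). It too moved with the constant, to -1.49 for 1 and -0.90 for 64, the last of these under 2-fold. It passed in every alternative that tested it.

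Among soluble regulators of a wider list of complement genes, Serping1, the inhibitor of the proteases C1r and C1s, had 11.47 ± 0.09 on D4.5 and 11.50 ± 0.11 on D3.5 (SD, n = 3 each), with a change of -0.04 ± 0.09 that was 0.50 and past the threshold with median centring (adjusted p = 0.0104).

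Clu, the gene of clusterin, a secreted chaperone that also binds the terminal complement complex, had 8.38, 8.35 and 8.45 on D4.5, against 8.31, 8.72 and 8.55 on D3.5. The D4.5 arrays lay inside the D3.5 range. The change was -0.13 ± 0.11 (95% interval -0.39 to 0.12; adjusted p = 0.341), and its sign was positive with median centring (0.24). It passed with array weights (-0.23) and without D3.5 replicate 1 (-0.24, adjusted p = 0.0449).

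**Figure D3:**
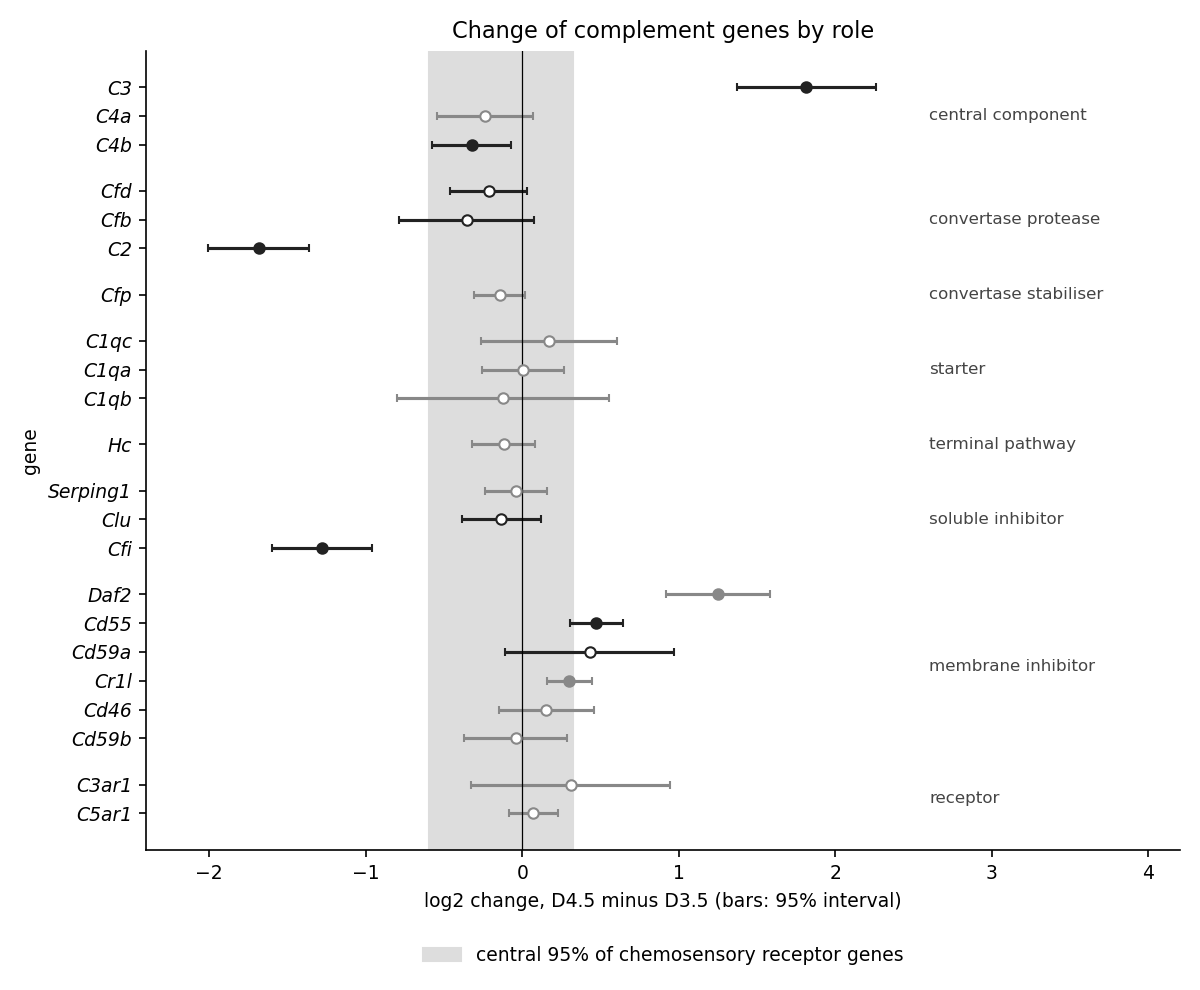
Log2 change (D4.5 minus D3.5) with its 95% interval for the 9 complement genes (black) and 13 other complement genes (grey), grouped by role. Filled points passed an adjusted p of 0.05, and the shaded band holds 95% of the changes of chemosensory receptor genes (-0.59 to 0.33). C3 at 1.81 and Daf2 at 1.25 lie farthest to the right, and C2 at -1.68 and Cfi at -1.28 farthest to the left.

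Cd55 encodes decay-accelerating factor, a membrane protein that takes C3 convertases apart. Its levels were 10.20, 10.26 and 10.26 on D4.5, against 9.75, 9.69 and 9.86 on D3.5. The arrays of each day lay close together and the days did not overlap. Within each day their order was the reverse of that of the stromal and endothelial sums, whose part was not tested. On D4.5 replicates 2 and 3 differed little (10.258 and 10.261). The rise of 0.47 ± 0.07 (1.39-fold; 95% interval 0.30 to 0.64; adjusted p = 0.00203) was past the range of the receptor genes, and it passed under every alternative run, with 0.95 under median centring. Daf2, now named Cd55b, is the second mouse gene of this kind, known mainly from testis. It stood at 6.99, 7.37 and 6.77 on D4.5, against 5.77, 5.80 and 5.79 on D3.5. The D3.5 values are at the level of receptor genes, and the rise of 1.25 ± 0.14 (adjusted p = 0.000547) was 1.54 with a constant of 1 and 0.80 with 64. Whether the probes of the pair respond to each other's transcripts is not stated.

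The 250 bases before the starts of Cd55 and Cd55b are shown because both genes rose and the sequences are alike. Both lie on the minus strand, Cd55 at chr1:130462745-130462994 and Cd55b at chr1:130423044-130423293 (RefSeq, GRCm38.p6), written 5′ to 3′ with motif matches in capitals.
Cd55 promoter: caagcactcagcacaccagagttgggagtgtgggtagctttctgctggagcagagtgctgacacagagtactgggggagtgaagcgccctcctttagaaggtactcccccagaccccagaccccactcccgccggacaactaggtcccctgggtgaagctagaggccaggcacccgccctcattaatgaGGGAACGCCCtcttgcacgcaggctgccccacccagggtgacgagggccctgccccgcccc
Cd55b promoter: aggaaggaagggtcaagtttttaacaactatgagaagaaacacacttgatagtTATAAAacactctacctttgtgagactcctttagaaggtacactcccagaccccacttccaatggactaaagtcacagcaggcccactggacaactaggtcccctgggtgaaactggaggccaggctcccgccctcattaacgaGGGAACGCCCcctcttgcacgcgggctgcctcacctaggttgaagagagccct
In a global alignment of the windows 179 bases were identical and 40 differed, with 62 gap positions, which is 81.7% identity of the aligned bases. Both windows hold the same NF-kB-type match, GGGAACGCCC, beginning 61 bases before the start of Cd55 and 53 before that of Cd55b. The Cd55b window also holds TATAAA, beginning 197 bases before its start, which 12.4% of windows hold on either strand. The C/EBP-type, STAT-type and oestrogen-receptor-type motifs have no match in either window. Of the other genes among the 9, Cfd and Cd59a have windows in the table, with no match to any of the 5 motifs searched. C2, C4b, Cfb, Cfi and Clu were not matched to a window.

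Cd59a, the main mouse gene of CD59, which keeps C9 from forming the terminal pore, had 9.13, 9.41 and 9.24 on D4.5, against 8.29, 9.30 and 8.89 on D3.5. D3.5 replicate 1 stood low and replicate 2 was within the D4.5 range. The change was 0.43 ± 0.23 (95% interval -0.11 to 0.97; adjusted p = 0.166). It ranged from 0.16 without D3.5 replicate 1 to 0.67 without D3.5 replicate 2, where it passed (adjusted p = 0.0275), and it passed with median centring (0.85, adjusted p = 0.0395). Cd55 minus Cd59a within arrays shifted by 0.043 (exact permutation p = 0.8), with values of 0.85 to 1.08 on D4.5 and 0.39 to 1.45 on D3.5. Cd59b, the second mouse CD59 gene, did not exceed the receptor genes on either day (5.99 ± 0.21 on D4.5 and 6.03 ± 0.21 on D3.5, SD, n = 3 each).

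Among the other membrane regulators, Cr1l, the gene of Crry, had 7.60, 7.62 and 7.65 on D4.5, against 7.28, 7.33 and 7.34 on D3.5. It rose by 0.30 ± 0.06 (adjusted p = 0.00722), inside the range of the receptor genes, and had no call in the values as deposited (0.05, or 0.46 relative to the median of all genes). Cd46, a cofactor of factor I that in mouse is known mainly from sperm, changed by 0.15 ± 0.13 (adjusted p = 0.362).

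The wider list held 45 measured complement genes besides the 9. Of these 5 rose, 6 fell and 34 did not pass, which is 24.4% past the test. Among all genes it was 44.4%, and among the chemosensory receptor genes 30%. The median change of the 45 genes was 0.01, and 21 of them did not exceed the receptor genes on either day. Besides Daf2 and Cr1l, the genes that rose included C1qbp, a mostly mitochondrial protein that binds C1q (0.95 ± 0.08), and Masp2, a lectin pathway protease (0.28 ± 0.07). The genes that fell included C9 of the terminal pore (-0.91 ± 0.10), the collectin gene Colec11 (-0.43 ± 0.08), C8a (-0.32 ± 0.10), Cr2 (-0.31 ± 0.09) and C8g (-0.23 ± 0.08). Of those named, C8a, C8g and Cr2 did not exceed the receptor genes on either day, C9 did not on D4.5, and Masp2 and Daf2 did not on D3.5. The changes of Masp2, Colec11, C8a, Cr2 and C8g lie inside the range of the receptor genes. Before normalization Masp2 averaged 74.7 on D4.5 and 87.6 on D3.5. In the values as deposited 29 of the 45 passed, where the median of all genes was -0.40.

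By role, 12 of 14 starters and lectins, 4 of 7 terminal components, 8 of 13 regulators and 8 of 9 receptors and binding proteins did not pass. Among all 21740 genes 12089 did not pass. At or under the level of the chemosensory genes on both days were 4 starters and lectins and 6 terminal components. So were 7 regulators and 3 receptors and binding proteins. The C1q genes, whose product starts the classical pathway and which are made mainly by macrophages, did not pass. C1qb had 7.96, 7.71 and 6.80 on D4.5, against 7.68, 7.84 and 7.31 on D3.5, with a change of -0.12 ± 0.29. The order of the D4.5 arrays is that of the leukocyte sums (2713, 1971 and 1686) and also of the stromal and endothelial sums. On D3.5 the order is that of the stromal and endothelial sums but not of the leukocyte sums (2164, 2693 and 2377). The part of these cells in it was not tested. C1qa (0.00 ± 0.11) and C1qc (0.17 ± 0.19) likewise had overlapping days. Properdin, Cfp, which stabilises the alternative convertase, changed by -0.14 ± 0.07 (adjusted p = 0.133). Hc, the mouse gene of C5, changed by -0.12 ± 0.09 at the level of receptor genes. The receptor genes of the released peptides, C3ar1 (0.31 ± 0.27) and C5ar1 (0.07 ± 0.07), did not pass, and C5ar1 did not exceed the chemosensory genes on either day.

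Genes that feed signals to complement genes were taken from a list of 23 cytokines, receptors and transcription factors. Of these 7 rose, 7 fell and 9 did not pass, beside 18% higher and 26.4% lower among all genes, with a median change of -0.07 in the list and over all genes. The smallest p among the rises was that of Esr1, the oestrogen receptor gene (11.19 ± 0.07 on D4.5 and 10.48 ± 0.12 on D3.5, SD, n = 3 each; 0.71 ± 0.08, adjusted p = 0.000631). Among the falls it was that of Pgr, the progesterone receptor gene (-3.15 ± 0.20).

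C2, Cfb and C4b lie in the class III part of the mouse major histocompatibility complex on chromosome 17, with 5 protein-coding genes of the RefSeq table between C4b and Cfb. Of 16 measured genes of this neighbourhood 5 rose, 2 fell and 9 did not pass, which is 43.8% past the test against 44.4% of all genes. Zbtb12, the other neighbour of C2, fell by 0.33 on the log2 scale (SE 0.07, adjusted p = 0.00768), inside the range of the receptor genes. Slc44a4, a choline transporter family gene, rose by 1.09 ± 0.07 (adjusted p = 6.39e-05).

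The genes with 1 row whose 6 array values ran most like those of C3 were Cnot10 (Pearson r = 0.999), Sdc2 (0.999) and Chd4 (0.998). For C2 they were Sh3bp4 (0.998), Vmn2r94 (0.998) and Fut2 (0.997). Vmn2r94 is itself one of the chemosensory receptor genes, with low means of 4.57 on D4.5 and 4.69 on D3.5. With 6 arrays in 2 days such high r values are common, since 1145 genes had r over 0.95 with C3 and 1118 with C2.

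**Figure D4:**
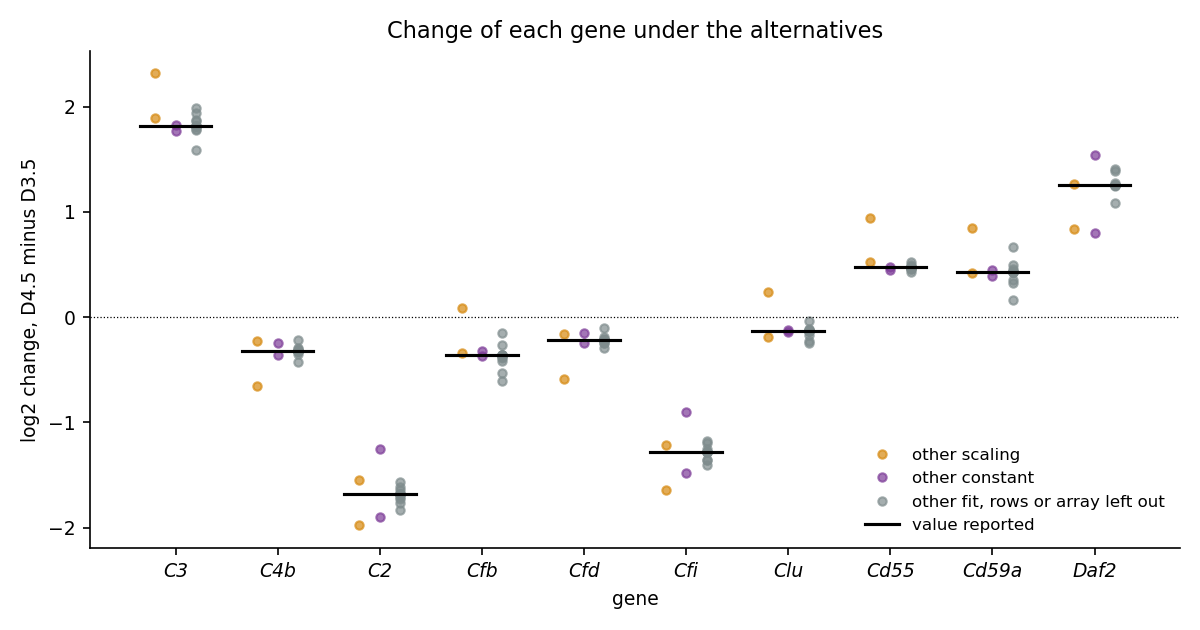
Log2 change (D4.5 minus D3.5) of the 9 complement genes and of Daf2 as reported (black line) and under each alternative (points: other scaling in orange, other constant in purple, other fits, row choices and left-out arrays in grey). The points of C3, C2, Cfi, Cd55 and Daf2 stay on one side of 0 (C3 from 1.59 to 2.32). So do those of C4b, Cfd and Cd59a, which had a call in only some of the fits. Those of Cfb run from -0.60 to 0.083 and those of Clu from -0.24 to 0.24.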

How the data were processed

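The deposited series-wide table held the authors' linear intensity values of 6 one-colour Affymetrix arrays, 1 row per identifier. Software, summary method and build: not given in the sources used here. Another deposited copy of the intensity table disagreed on 1 of 35556 rows. The authors' own comparison columns were not used. Rows were named by the deposited symbol column, where 25070 rows held 1 symbol, for 21740 genes. The names rest on that column alone: neighbouring identifiers held symbols of one chromosome in 17.5% of cases, against 17.0% to 18.0% with the symbols moved by up to 60 rows, so the identifiers give no check of the symbols. Day means of genes with 1 row correlated with r = 0.931, and with 0.325 and 0.332 when the D3.5 rows were moved by 1 row up or down, which shows that the rows of the days align with each other, not that the symbols are right.

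Values were taken as log2(intensity + 16), quantile normalized over all rows and averaged over the rows of a symbol, with no filter. The 2 days were compared by limma (version 3.58.1, R 4.3.3; functions lmFit and eBayes). Tests were two-sided, p-values were adjusted over all genes by the Benjamini-Hochberg method, with a threshold of 0.05 and 2-fold as a second criterion. No detection calls were used, and the number of arrays limits the precision. Pairs of genes were compared within arrays by an exact permutation test in SciPy 1.17.1. The fit was tested on simulated data. Python 3.11.15, pandas 2.3.3 and matplotlib 3.10.9 served for tables and figures.

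The 9 genes and the lists were chosen with earlier results of these data known. Genes named from the wider complement list are 13 listed by role, 1 of which (Cd55b) the table calls Daf2; C1qbp, Masp2, C9, Colec11, C8a, Cr2 and C8g were named after their values were seen. From each other list the gene with the smallest p in each direction was named, and for C3 and C2 the 3 genes with the highest r. Some genes of these lists are not reported here. Alternatives were median centring, values as deposited, constants of 1 and 64, genes above the median level, genes with 1 row, the row with the highest mean, eBayes with trend and robust, array weights, a replicate block and each array left out. Promoter sequences are from the RefSeq table of GRCm38.p6, searched on both strands.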

Additional observations from a re-analysis of the deposited data

How the results depend on the processing

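Of 143 alternative values for the 9 genes, 127 kept the direction and the side of the threshold, 7 lost a call, all of them for C4b, 7 gained one and 2 changed sign. The 2 changes of sign came with median centring (Cfb 0.083, Clu 0.24). Under this scaling C4b stood at -0.23 without a call and Cd59a at 0.85 with one. The values as deposited gave Cfd a call (-0.58), a constant of 64 took that of C4b (-0.24), and array weights gave calls to Cfb (-0.60) and Clu (-0.23). Leaving out 1 array in turn gave ranges of -0.43 to -0.22 for C4b, -0.53 to -0.15 for Cfb, 0.16 to 0.67 for Cd59a and -0.24 to -0.038 for Clu, and 7 to 12 of the other complement genes passed, with 7 without D4.5 replicate 2. Of these genes 29 passed in the values as deposited and 3 among genes above the median level, where fewer are tested. Over all genes 15914 and 5771 passed in these fits, against 9651. C3, C2, Cd55 and Cfi kept direction and call in every alternative that tested them; Cfi is not among the genes above the median level.

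Over genes above the median level, deviations of same-numbered arrays of the 2 days correlated weakly (r = -0.05, 0.07 and 0.08). The labels name no pairing, and these values cannot exclude it. With a replicate block 5 of the 9 genes and 8283 of all genes passed. Signs also turned for named genes without a call. With median centring C1qa stood at -0.012, C1qb at 0.089, Cfp at 0.033 and Serping1 at 0.50, and as deposited C1qa at -0.44, C1qc at -0.24, Cd46 at -0.33, Serping1 at 0.074, C3ar1 at -0.12 and C5ar1 at -0.43. Array weights gave -0.087 for C1qa and 0.071 for C1qb. Arrays left out gave -0.088 to 0.070 for C1qa, -0.35 to 0.22 for C1qb, -0.15 to 0.080 for Cd59b and -0.075 to 0.024 for Serping1. Of the calls past 2-fold as well, 55.2% were rises, against 81.2% with median centring and 32.4% as deposited. The causes were not tested. Signal near the receptor genes limits the folds of C2, Cfi and Daf2.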

Other observations

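Of 22 measured genes of secreted defence proteins 3 rose, 6 fell and 13 did not pass, which is 40.9% past the test against 44.4% of all genes, with a median change of -0.05. Sftpd, the collectin surfactant protein D, had levels of 10.12, 10.00 and 10.25 on D4.5, against 7.71, 7.93 and 7.42 on D3.5, and rose by 2.43 ± 0.14 (5.41-fold; limma adjusted p = 2.69e-05). The smallest p among the falls was that of the acute phase gene Orm2 (-0.63 ± 0.08), which did not exceed the receptor genes on either day. Among leukocyte markers Csf1r, a macrophage receptor, rose by 0.76 ± 0.13 from the level of the chemosensory genes on D3.5. Cd14, a co-receptor for endotoxin that epithelia can also make, fell by 1.45 on the log2 scale. Of the 14 leukocyte markers 11 did not pass.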
